A study of Mus musculus with 11 samples.

Results

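The interleukin-1 (IL-1) and tumor necrosis factor (TNF) signaling genes were followed through single cells of the mouse brain cortex. The 10 genes, all found among the 26921 genes of the count files, were chosen by name: the ligands Il1a, Il1b, Il18 and Tnf, the IL-1 receptor antagonist Il1rn, the inflammasome sensor Nlrp3, the IL-1 receptors Il1r1 and Il1r2, and the TNF receptors Tnfrsf1a and Tnfrsf1b. The questions were which cells hold the ligand transcripts (microglia, macrophages, neutrophils), which hold the receptors, and how both differ with age and in experimental autoimmune encephalomyelitis (EAE), a model of multiple sclerosis.

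Myelin-depleted cortex cells of C57BL/6 mice were measured in 11 droplet libraries. The 4 Juvenile libraries came from postnatal day 10 (P10) and the 3 Adult libraries from mice of 7–11 weeks, each with tissue of 6 mice, and both groups were untreated. The 2 Aged libraries (18 months, untreated) and the 2 EAE libraries each held tissue of 3 mice. EAE was induced in females of 7–11 weeks with MOG peptide in complete Freund's adjuvant and pertussis toxin, and cortex was taken at the disease peak. The Adult libraries received none of these agents, so the response to adjuvant and toxin cannot be told apart from that to the disease.

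IL-1α and IL-1β signal through IL1R1, whereas IL1R2 binds IL-1 without signaling and the product of Il1rn occupies IL1R1 without activating it. IL-1β and IL-18 are made as precursors that caspase-1 cleaves after an inflammasome, such as that built by NLRP3, has assembled. TNF acts on TNFR1 (Tnfrsf1a), which most cells carry, and on TNFR2 (Tnfrsf1b), which is largely found on leukocytes and endothelium. Microglia and infiltrating myeloid cells are known sources of these cytokines in the inflamed brain, and endothelial cells (ECs) are a known target.

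The genomic sequence around these genes shows a feature that the choice of genes did not use. The windows printed here run from 40 to 11 bases before the annotated transcript start (RefSeq, GRCm38.p6, gene strand), where a TATA box usually lies, and capitals mark TATAAA. They are shown because 3 of the 4 ligand genes held this motif, whereas Il18 and the receptor genes did not in the windows searched.
Il1a, chr2:129309983-129310012, minus strand: aggaagacTATAAAaaggcagagaagcctg
Il1b, chr2:129371150-129371179, minus strand: ttttaggacTATAAAacaagggagggaaaa
Tnf, chr17:35202018-35202047, minus strand: tccccaagggcTATAAAggcggccgtctgc
Il1r1, chr1:40225040-40225069, plus strand: agaggctctgacacaggcgtcatcaggagc
Tnfrsf1a, chr6:125349683-125349712, plus strand: ccctcctcctccctcgcctctccccaggct
TATAAA stood in 3 of the 14 windows of the 10 genes, read on the gene strand only, and in 2.08% of the 32851 windows of this length in the table. A match is a description and does not show that a factor binds there.

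The 3′ untranslated regions were read for ATTTA pentamers, a part of AU-rich elements, which can shorten the life of a message. Pentamers were not limited to the cytokine messages, and the receptor gene Il1r1 held 8 in 3864 bases. The richest 29-base stretch is given for the 3 genes with most pentamers per length (GENCODE M21 transcripts, transcript strand, capitals mark ATTTA, which may overlap).
Tnf, bases 438 to 466 of the 3′ untranslated region: ttATTTAttATTTATTTAttATTTATTTA
Il1b, bases 193 to 221: aaccacttacctATTTATTTAtgtATTTA
Nlrp3, bases 564 to 592: gagATTTAtaaaacccatttttgtATTTA
Tnf held 8 pentamers in 764 bases, Il1b 4 in 459 bases and Nlrp3 5 in 693 bases. The other 6 genes with a region to read held 0 to 2.99 per 1000 bases, against 8.71 for Il1b and 7.22 for Nlrp3. No pentamer density over all genes is given here. The nonamer TTATTTATT was present in 5 copies in Tnf and in no other of these genes, and 7.72% of 20829 genes held it.

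The libraries held 54646 barcodes and 15755504 to 34326349 UMIs (unique molecular identifiers, 1 per captured message), and 50625 cells passed the filters. Cells were clustered without the 10 genes and named from fixed markers: ECs, microglia, perivascular macrophages (PVMs), choroid plexus epithelium (CPE), astrocytes, mural cells, fibroblast-like cells, T cells, dendritic cells (DCs), infiltrating macrophages and neutrophils. The libraries labelled cortex thus also held choroid plexus, with 6686 CPE cells. Macrophages were an EAE class, with 699 and 647 cells in the EAE libraries and 0 to 4 elsewhere. Neutrophils numbered 164 and 160 in EAE, 37 and 41 in Aged, and at most 5 in any other library. A cluster of 339 cells led by Cxcl13, Lilra5 and Ccl4 fitted no marker list and is called Cxcl13+ cells. Adult 1 held only 89 ECs, against 1989 and 2110 in Adult 2 and Adult 3. A cluster with 852 Adult cells that scored highest on EC markers, but had hemoglobin genes among its leading genes, stayed unnamed, and 781 cells of Adult 1 were unnamed in all. Adult 2 and Adult 3 differed little more than by counting noise and were summed as 1 unit, which leaves 2 Adult units in every test. Juvenile 1 and 2 and Juvenile 3 and 4 formed 2 close pairs, with a chi-square per degree of freedom in ECs of 2.55 and 2.37 within pairs and of 12 to 14.3 between them, but were counted as 4 units. A pair of libraries shared at most 125 barcodes, or 1.66% of the smaller library. Levels are CPM, the UMIs of a gene divided by all UMIs of its class in a library and scaled by the usual CPM constant, for classes of at least 10 cells. A mean ± SD counts Adult 2 and 3 once.

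By CPM, Il1b, which encodes the precursor of IL-1β, was at its highest in neutrophils and stood close behind in macrophages of the EAE cortex. Neutrophils held 3782 and 3447 CPM in EAE 1 and EAE 2, and macrophages 2949 and 2918 CPM. DCs followed with 2546 and 2692 CPM and Cxcl13+ cells with 2918 and 2165 CPM. Microglia of the same libraries held 165 and 192 CPM and PVMs 86.8 and 84.5 CPM. The levels of neutrophils did not overlap those of macrophages, whereas those of Cxcl13+ cells overlapped those of DCs and reached the lower macrophage value. Within the EAE libraries, neutrophils exceeded macrophages by 0.63 ± 0.19 on the log2 scale (SE, edgeR adjusted p = 0.0123). This fit uses TMM scaling, under which the median over all genes was -0.28, and the CPM values lie closer together. By the share of cells with an Il1b UMI the order was the other way, with or without thinning. It was 93.5 to 94.6% of macrophages and 80 to 81.7% of neutrophils before thinning. With cells thinned to 1500 UMIs it was 82.9 to 84.3% of macrophages and 68.9 to 71.8% of neutrophils. Against macrophages, Il1b differed by -4.44 ± 0.22 in microglia and by -5.38 ± 0.24 in PVMs (adjusted p = 1.14e-16 and 2.26e-17). DCs differed from macrophages by -0.24 for Il1b (95% interval -0.62 to 0.14), which did not pass.

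By share of all Il1b UMIs in a library, macrophages were the main holder in EAE, with 61.8% (mean of 2 libraries, 61.1 to 62.4%). DCs held 11.6%, neutrophils 7.24% and microglia 4.56%. A share follows the number of captured cells, and fewer cells of a type and less RNA per cell can both lower it, so it describes these libraries only.

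Il1a, the ligand that is active without cleavage, was a transcript of microglia in every condition. Microglia held 292 and 290 CPM in EAE, 251, 340 and 460 CPM in Adult 1 to 3, 481 and 534 CPM in Aged, and 459, 439, 378 and 354 CPM in Juvenile 1 to 4. Macrophages of the EAE libraries stood at 35.7 and 53.4 CPM and neutrophils at 28.1 and 9.75 CPM. In EAE, microglia exceeded macrophages in Il1a by 2.30 ± 0.09 (log2, adjusted p = 3.67e-49), the opposite order to Il1b. Microglia held 76.8% of Il1a UMIs in EAE and 65.5%, 86.5% and 90.8% in Adult, Aged and Juvenile.

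Tnf followed Il1a rather than Il1b in where it was found in EAE. Microglia held 481 and 388 CPM, Cxcl13+ cells 221 and 122 CPM, PVMs 70.2 and 105 CPM, T cells 57.9 and 67.1 CPM, and macrophages 30.4 and 42.6 CPM. No other class of the EAE libraries reached the level of microglia. Microglia exceeded macrophages by 3.16 ± 0.21 (log2, adjusted p = 2.74e-11) and PVMs exceeded them by 0.98 ± 0.28 (adjusted p = 0.00766). Microglia held 71.8% of Tnf UMIs in EAE and macrophages 5.06%.

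**Figure D1:**
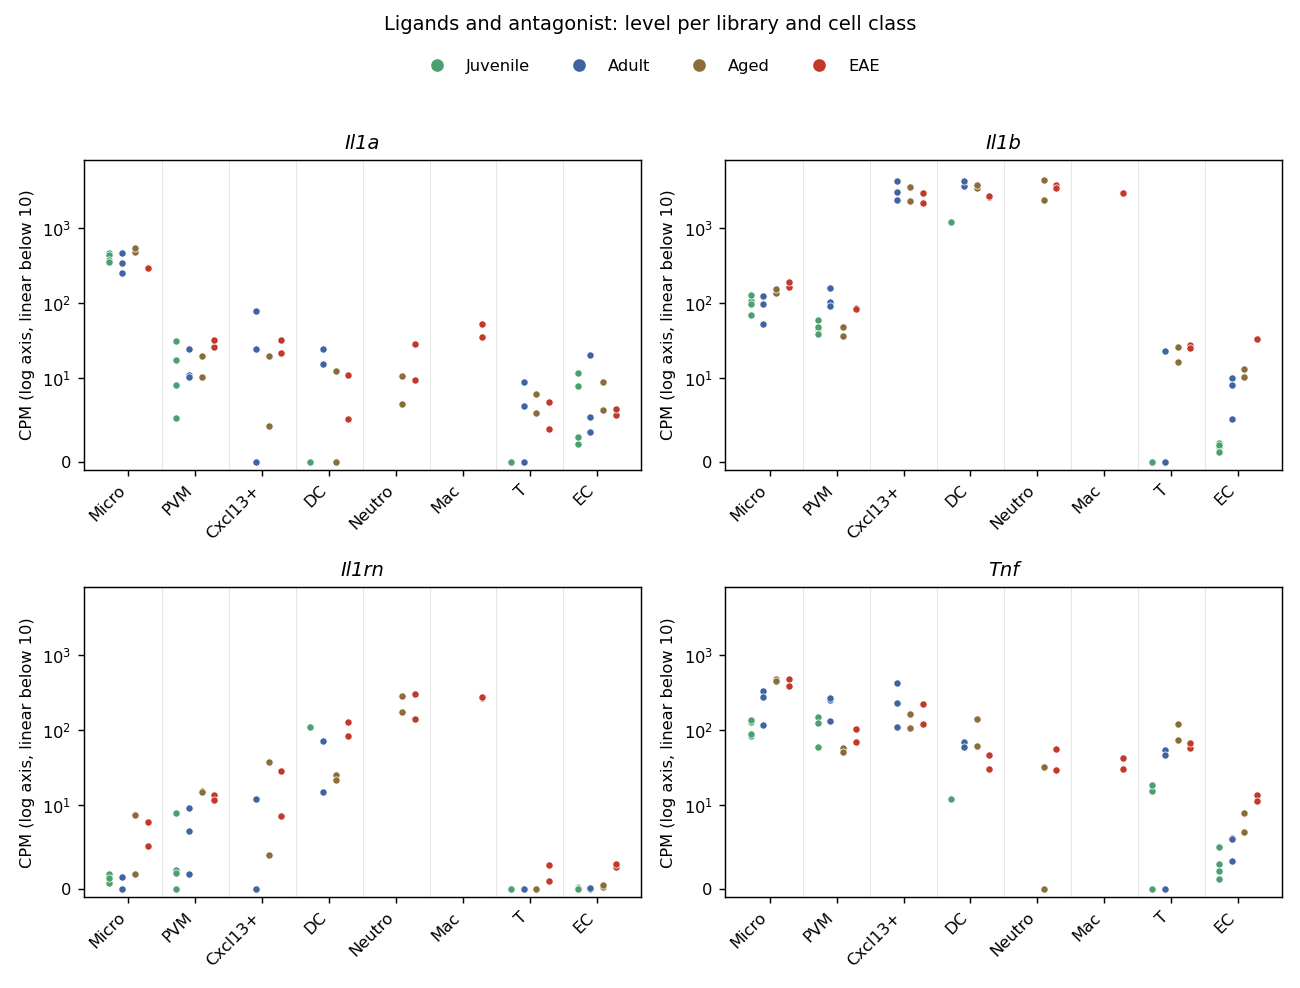
CPM of Il1a, Il1b, Il1rn and Tnf by cell class, 1 point per library with at least 10 cells of that class, colored by condition; the axis is logarithmic above 10 CPM and linear below. Il1b of neutrophils, macrophages, DCs and Cxcl13+ cells lies at or above 1199 CPM in every library shown, whereas Il1a and Tnf are highest in microglia in EAE.

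The antagonist and the decoy receptor were highest in neutrophils, macrophages and DCs. Il1rn, whose product blocks IL1R1, stood at 270 and 278 CPM in macrophages, 306 and 139 CPM in neutrophils and 83.1 and 127 CPM in DCs of EAE, and at 5.13 and 7.97 CPM in microglia. Macrophages held 73.3% of all Il1rn UMIs in EAE. Cxcl13+ cells of EAE, which stood near DCs in Il1b, held 28.9 and 8.73 CPM of Il1rn and 14.5 and 8.73 CPM of Il1r2. Il1r2, the decoy receptor, reached 2146 and 1789 CPM in EAE neutrophils, 382 and 391 CPM in macrophages and 511 and 568 CPM in DCs. Neutrophils exceeded macrophages in Il1r2 by 2.68 ± 0.10 (log2, adjusted p = 4.36e-59). Neutrophils of the Aged libraries held 660 and 710 CPM of Il1r2, below both EAE values, a difference that was not tested. T cells of EAE also held Il1r2, at 66.4 and 64.0 CPM, against 2.71 and 17.5 CPM in Aged T cells and 0 UMIs in the Adult and Juvenile T cells of the libraries with at least 10.

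Of the 40 member tests between neutrophils, microglia, PVMs or DCs and macrophages in EAE, 26 passed (8 higher, 18 lower than in macrophages), where 36.3% of all gene tests passed (16.7% higher, 19.6% lower). Contrast by contrast, the calls were 5 of 10 members for neutrophils (30.9% of all genes, 13.2% higher), 8 of 10 for microglia (56.7%, 28.8% higher), 8 of 10 for PVMs (40.1%, 18.5% higher) and 5 of 10 for DCs (17.4%, 6.38% higher). DCs had 1 member higher (Il1r2) and 4 lower (Il1a, Il1rn, Il18 and Tnfrsf1b). Of these, Il1r2 turned to -1.68 (adjusted p = 1.94e-09) with cells named by marker score and was lost under DESeq2 (0.323), and Tnfrsf1b was lost under both and with RLE scaling (0.701, 0.105 and 0.0828). Nlrp3, the inflammasome sensor, stood at 75.5 and 79.3 CPM in macrophages and 45.1 and 39.4 CPM in microglia, a log2 difference of -1.28 ± 0.11 for microglia minus macrophages (adjusted p = 7.55e-21). Tnfrsf1a was higher in neutrophils than in macrophages by 0.69 ± 0.13 (adjusted p = 1.97e-06), and the difference for Il18 was -1.27 ± 0.42 (adjusted p = 0.0133), a call lost with RLE scaling (adjusted p = 0.109) and under DESeq2 (0.119). Il1r1 was also called higher in neutrophils, which held 4.88 and 11.2 CPM on 6 UMIs. That call was lost with no filter on low counts (edgeR adjusted p = 0.0912) and at a clustering resolution of 0.9 (0.067). Values of these fits are on a scale set by TMM normalization, and the median over all genes was -0.28 for neutrophils and between -0.10 and 0.07 for the other contrasts. The classes were defined on the same cells from other genes, and each EAE contrast rests on 2 libraries.

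**Figure D2:**
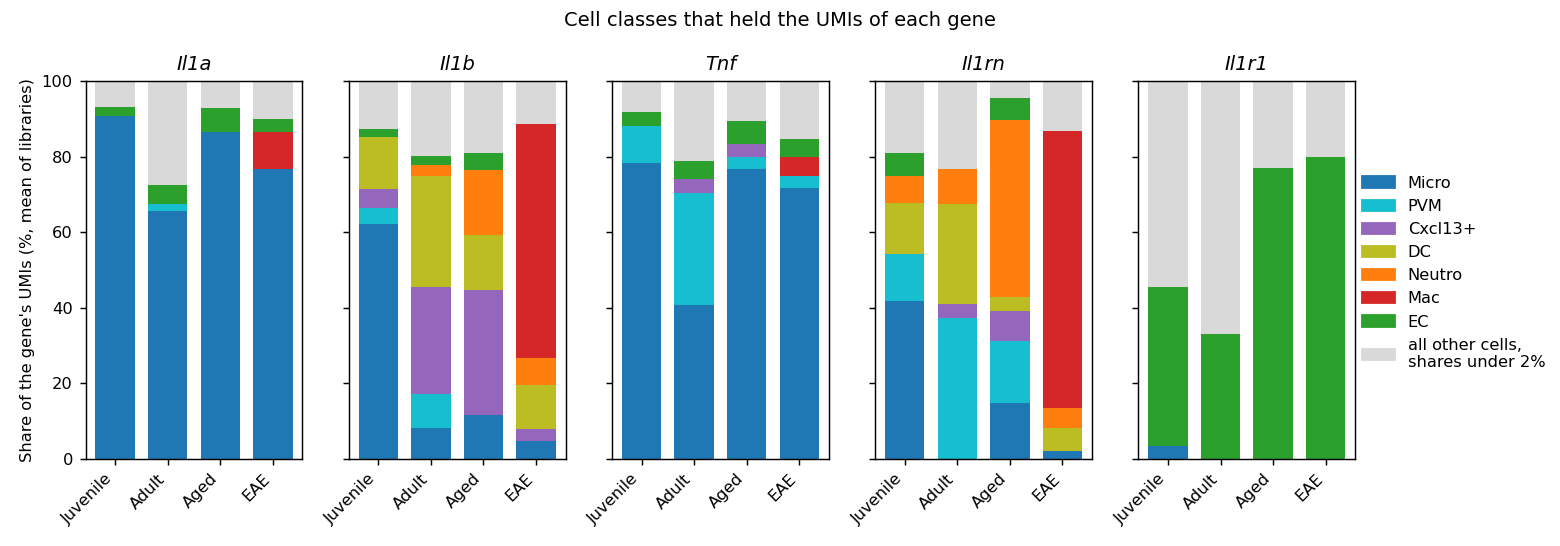
Mean share of a gene's UMIs (percent of the library, vertical axis) held by each cell class in Juvenile, Adult, Aged and EAE libraries, for Il1a, Il1b, Tnf, Il1rn and Il1r1; grey collects all other cells and shares under 2%. Macrophages hold 61.8% of Il1b and 73.3% of Il1rn in EAE, microglia hold most Il1a and Tnf UMIs in EAE, Aged and Juvenile, and ECs hold 79.9% of Il1r1 in EAE.

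Without disease, the main holders of Il1b UMIs differed between conditions. Over the 2 Adult units Cxcl13+ cells held 21.3 to 35.6% and DCs 8.91 to 49.5%. In Aged libraries Cxcl13+ cells (33.1%) and neutrophils (17.4%) led, and in Juvenile libraries microglia (62.1%). Cxcl13+ cells stood at 2968, 4260 and 2320 CPM in Adult 1 to 3 and 2308 and 3492 CPM in Aged. Aged neutrophils held 4292 and 2324 CPM, which spans the EAE neutrophils, and DCs held 3444 and 3708 CPM in Aged and 3650 and 4222 CPM in the 2 Adult libraries with enough cells. The DCs of Juvenile 3 held 1199 CPM, the lowest DC value.

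The disease-free PVMs and Cxcl13+ cells, clustered again within each condition, gave a Lyve1+ group and an MHCII+ group, and Il1b separated them. Most MHCII+ cells belonged to the Cxcl13+ class, so both names describe largely the same cells. The MHCII+ group held 1859 CPM of Il1b in Adult 1, 3705 CPM in Adult 2 and 3 summed, and 2786 and 3838 CPM in Aged 1 and 2. The Lyve1+ group of the same units held 100.4, 125, 40.6 and 24.0 CPM. The groups did not overlap, and the log2 difference was 5.68 ± 0.73 (adjusted p = 0.0173, 4 units, 180 against 760 cells), a call lost without Aged 1 (5.48, adjusted p = 0.0848), with no filter on low counts (0.0602) and with near-identical libraries summed (0.0792). Nlrp3 was higher in MHCII+ cells in each unit, at 80.5 against 19.0 CPM, 204 against 40.6 CPM, 131 against 45.3 CPM and 102 against 24.0 CPM, a log2 difference of 2.29 ± 0.25 (adjusted p = 5.34e-07). Tnf was also higher (1.105 ± 0.27, adjusted p = 0.00971), a call lost without Adult 2 (0.127) and without the library term (0.383), and Tnfrsf1a was lower (-0.69 ± 0.21, adjusted p = 0.0189), a call lost without Adult 1 (0.066), Aged 1 (0.0741) or Aged 2 (0.156), under DESeq2 (0.154) and with near-identical libraries summed (0.0722). These were 4 of 6 members tested, 3 higher and 1 lower, where 26.1% of all genes passed (14.8% higher, 11.3% lower). The subclusters were found from other genes of the same cells. A Juvenile subcluster of 31 cells led by H2-Aa and H2-Ab1 scored 1.481 on the MHCII+ markers, above the Aged MHCII+ group (1.087), but was set aside because microglial markers (Tmem119, Sall1) were among its leading genes. A few cells placed differently changed that, so the set of units depends on the clustering.

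Microglia and the PVM class, which does not include the Cxcl13+ cells, differed most in Il1a over the 8 disease-free units. Microglia lay 4.60 ± 0.14 above PVMs (log2, adjusted p = 5.39e-20), with PVMs between 5.23 and 31.1 CPM in the 9 libraries. Nlrp3 and Tnfrsf1b were higher in microglia by 1.001 ± 0.14 and 0.47 ± 0.11 (adjusted p = 6.79e-07 and 0.000656). Il1rn and Il18 were lower in microglia, with differences of -2.001 ± 0.49 and -0.45 ± 0.15 (adjusted p = 0.00123 and 0.0141), and the Il18 call was lost without Juvenile 2 or without Juvenile 3 (adjusted p = 0.0583 and 0.0749) and with cells named by marker score (0.0847). These 5 calls were among 8 members tested, where 45.4% of all genes passed (23.4% higher in microglia, 22% lower). Tnf and Il1b did not pass over all ages together, with differences of 0.71 (95% interval -0.22 to 1.64) and 0.59 (-0.10 to 1.29).

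Il18, whose product drives interferon-γ from lymphocytes, was highest in astrocytes. Astrocytes held 363, 241 and 384 CPM in Adult 1 to 3, 440 and 437 CPM in Aged, 354 and 356 CPM in EAE, and 177, 207, 258 and 246 CPM in Juvenile 1 to 4. Microglia held 35.7 to 67.2 CPM and PVMs 36.4 to 89.0 CPM over all libraries, and macrophages of EAE 43.2 and 44.1 CPM. In EAE, where only 72 astrocytes were captured, microglia (31.3%) and macrophages (21.6%) held most Il18 UMIs, whereas in Aged astrocytes led with 32.4%.

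The receptor through which IL-1 signals was found mainly in ECs, mural cells and CPE, and at its highest in ECs of EAE. Il1r1 in ECs stood at 90.1 and 96.4 CPM in EAE, 40.6, 23.8 and 23.1 CPM in Adult 1 to 3, 33.9 and 38.6 CPM in Aged, and 15.6, 15.3, 13.7 and 10.4 CPM in Juvenile. The EAE values lay above all others. Mural cells held 21.2 to 55.4 CPM from Adult to EAE and CPE 14.1 to 21.3 CPM. At P10 mural cells held 19.0 to 28.5 CPM, above the ECs of that age, and in Adult the values of mural cells and ECs overlapped. Microglia, PVMs and macrophages stayed at or below 8.18 CPM, and T cells of EAE held 16.0 and 16.9 CPM. ECs carried 79.9% of Il1r1 UMIs in EAE and 76.9% in Aged. Over the 2 Adult units the EC share was 4.05 to 62.1% and the CPE share 29.2 to 69.6%, so no order of these classes can be given for Adult. In Juvenile libraries the shares also overlapped, at 31.2 to 53.4% in ECs and 22.3 to 55.1% in CPE.

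Venous ECs carried more Il1r1 than other ECs in each of the 5 Adult, Aged and EAE units compared. Venous against other ECs held 222 and 18.9 CPM in Adult 2 and 3 summed, 117 and 12 CPM in Aged 1, 118 and 14.4 CPM in Aged 2, 337 and 43.3 CPM in EAE 1, and 359 and 46.1 CPM in EAE 2. The lowest venous value was above the highest of the other ECs. The log2 difference was 3.16 ± 0.11 (adjusted p = 1.73e-11, library as block) and lay between 3.05 and 3.22 in every alternative run. In all 4 of 10 members passed, all higher, where 12% of all genes passed and 7.44% were higher. The others were Tnfrsf1b (0.66 ± 0.15, adjusted p = 0.00749), Il1r2 (1.05 ± 0.31, 0.0331) and Tnfrsf1a (0.40 ± 0.12, 0.0349). Tnfrsf1b lost the call without EAE 1 (0.0525) and without the library term (0.0595). Il1r2 lost it without Aged 2, EAE 1 or EAE 2 (0.0902, 0.18 and 0.131), and Tnfrsf1a without Adult 2, Adult 3, Aged 2, EAE 1 or EAE 2 (0.0509 to 0.146). Both were also lost under DESeq2, with no filter, with summed libraries and without the library term (0.0617 to 0.663 for Il1r2, 0.0547 to 0.509 for Tnfrsf1a), and Il1r2 also at a clustering resolution of 0.9 (0.238). The venous group of Adult had 68 cells, and an Adult subcluster of 736 ECs led by Icam1, Flrt2 and Tmsb10 stayed among the other ECs. Juvenile ECs, among which a subcluster of 254 cells also met the rule for the venous name, were not part of this comparison.

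TNF receptors were broader. Tnfrsf1a in EAE ranged from 384 and 280 CPM in neutrophils over 259 and 257 CPM in macrophages and 172 CPM in microglia of both libraries to 127 and 121 CPM in ECs and 38.2 and 35.5 CPM in CPE. Fibroblast-like cells of EAE held 343 and 313 CPM of Tnfrsf1a, above 93.4, 226 and 138 CPM in Adult, but only 38 EAE cells stood behind this and the difference did not pass. Tnfrsf1b was highest in leukocytes: 122 and 106 CPM in macrophages, 121 and 112 CPM in T cells, 89.8 and 102 CPM in neutrophils and 85.6 and 81.3 CPM in microglia of EAE. ECs held 21.6 and 20.9 CPM of Tnfrsf1b and CPE 4.71 and 5.42 CPM.

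**Figure D3:**
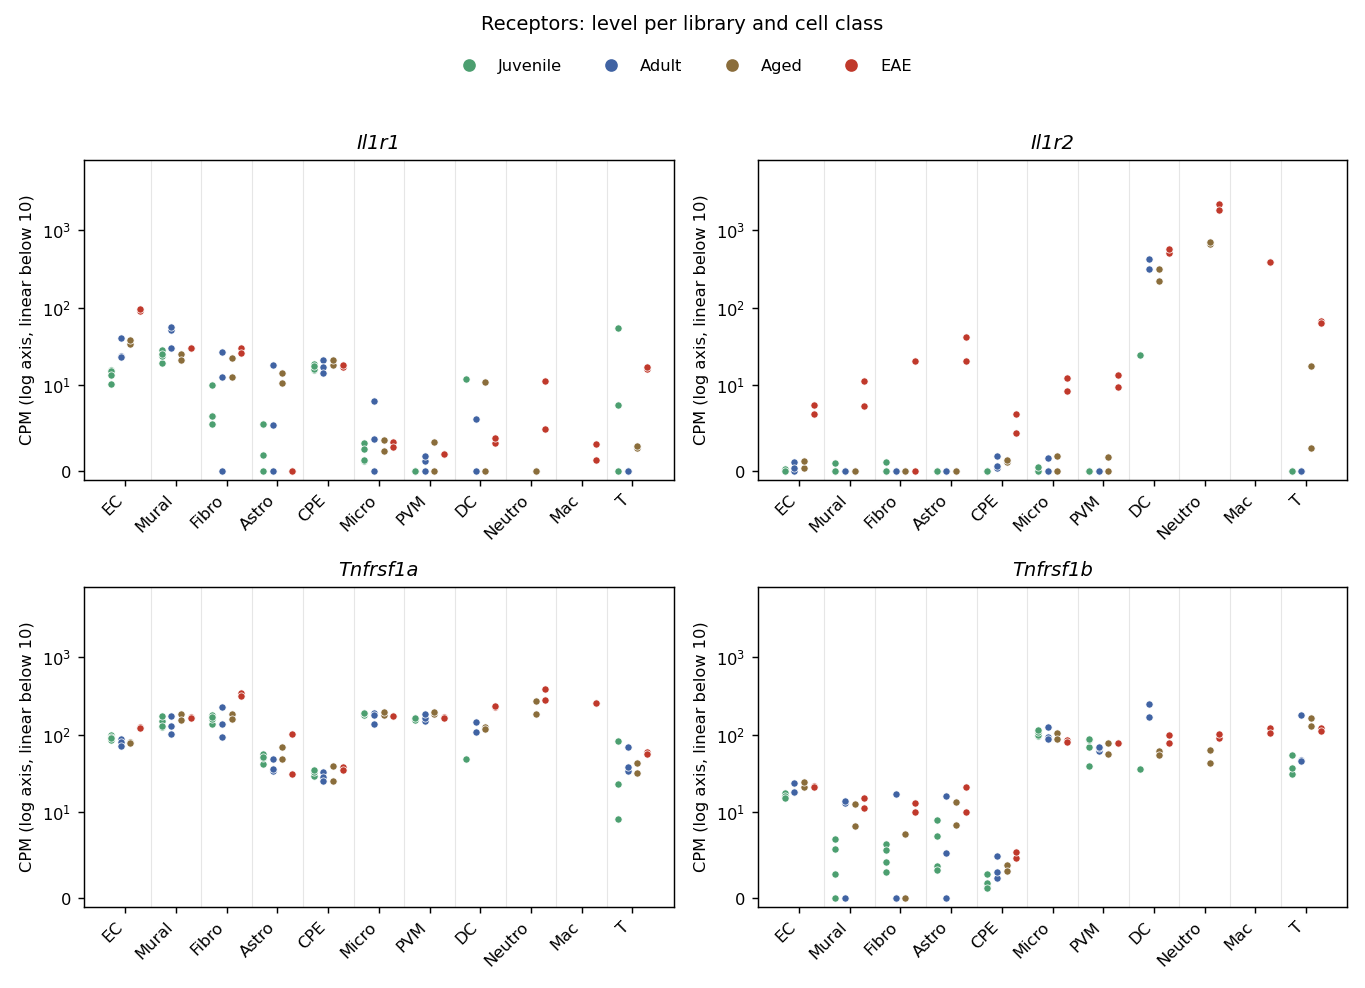
CPM of Il1r1, Il1r2, Tnfrsf1a and Tnfrsf1b by cell class, 1 point per library with at least 10 cells of that class, colored by condition; the axis is logarithmic above 10 CPM and linear below. Il1r1 peaks in ECs of EAE (90.1 and 96.4 CPM), Il1r2 in neutrophils (660 to 2146 CPM), and Tnfrsf1a is spread over nearly all classes.

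In EAE, members were called higher than in untreated adults in 5 of the 7 classes tested, and none was called lower. Of 43 tests of members over the 7 classes, 14 were called, all higher, where 20.2% of all gene tests passed and 11% were higher (edgeR, adjusted p below 0.05). In ECs 6 were called, in microglia 3, in CPE 3, in astrocytes 1 and in PVMs 1. The count of 14 became 8 without cells that carried 2 or more UMIs of macrophage or neutrophil markers (marker-bearing cells, a variant chosen after seeing the data) and 9 without EAE 2, and the single calls in PVMs and astrocytes were among those lost without marker-bearing cells. In mural cells 0 of 3 passed, with 2 at an unadjusted p below 0.05 (4.56% of all genes called, 2.99% higher), and in fibroblast-like cells 0 of 1, with 1 unadjusted (3.47%, 1.71% higher). These shares are at the adjusted threshold and give no measure for the unadjusted counts. Members not tested were below the filter on low counts, which in microglia held for Il1r1 and in PVMs for Il1rn, Il1r1 and Il1r2.

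In ECs, 6 of 10 members rose in EAE, where 13.4% of all genes were called higher and 23% in all. The IL-1 receptor Il1r1 rose by 2.11 ± 0.17 on the log2 scale (adjusted p = 7.68e-07) and Tnfrsf1a by 0.86 ± 0.11 (adjusted p = 6.08e-05), from 88.1, 81.0 and 71.8 CPM in Adult to 127 and 121 CPM. Both held in every alternative run, Il1r1 with 1.54 to 2.34 and Tnfrsf1a with 0.79 to 1.05. Il1r1 was low in the infiltrating myeloid cells (1.28 to 11.2 CPM in macrophages and neutrophils of EAE). Without marker-bearing cells Il1r1 rose by 1.63 and Tnfrsf1a by 0.82 in ECs. Most Adult ECs lay in a cluster led by Ndnf and Hmcn1, and most EAE ECs in clusters led by Xdh and by Lrg1. Venous ECs, which carried more Il1r1 than other ECs, were 68 of 4188 ECs in Adult and 520 of 6998 in EAE. They were named by clustering within each condition. Within venous and within other ECs, the EAE values of Il1r1 given above also exceeded those of Adult 2 and 3 summed. How much of the class rise follows the venous share was not tested.

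Il1b, Il1r2 and Il1rn also rose in ECs, by 2.35 ± 0.22, 3.46 ± 0.54 and 5.24 ± 0.85 (adjusted p = 2.04e-06, 0.000374 and 0.000468). Il1b in ECs was 33.0 and 32.8 CPM in EAE against 10.2, 9.15 and 5.16 CPM in Adult. T cells, which should lack Il1b, held 27.7 and 24.96 CPM in the same EAE libraries, and per 100 UMIs of S100a8 and S100a9 both classes held a like number, 21.5 and 20.1 in ECs and 20.8 and 19.9 in T cells. At 1500 UMIs per cell, 4.94% of ECs and 4.38% of T cells in EAE had an Il1b UMI, so the EC level was close to that of T cells. Where the Il1b message of ECs came from was not tested. The median depth was 2363 UMIs in ECs and 3202 in T cells before thinning, and the unthinned shares were 9.47% and 9.62%. The summed macrophage markers in ECs moved the same way, from 20.5–30.5 CPM in Adult, with up to 6 of 7 genes at 0, to 119–137 CPM in EAE with none at 0. Their part in the result was not tested. With marker-bearing cells left out, Il1b rose by 2.42, Il1r2 by 3.52 and Il1rn by 5.35. Cells with fewer such UMIs stayed in, so this variant cannot show the part of message spread thinly over cells. The neutrophil genes Retnlg, S100a8 and S100a9 also rose in ECs of EAE, by 2.74, 2.37 and 2.54. Il1rn rested on 60 UMIs in EAE against 1 in Adult, a ratio of 41.7 (counting interval 7.21 to 1676). In EAE 0.843% of ECs and 0.715% of T cells had an Il1rn UMI (0.427% and 0.269% at 1500 UMIs per cell), so this EC level too was near that of T cells. T cells of EAE themselves held Il1r2 and give no such reference for it. Il1r2 and Il1rn lost the call without Adult 2 and 3 together (adjusted p = 0.245 and 0.443), and DESeq2 gave no adjusted p for Il1rn. Tnf in ECs rose by 1.28 ± 0.38 (adjusted p = 0.0266), from 3.39, 6.15 and 5.97 CPM in Adult to 13.9 and 11.4 CPM, and this call was lost without Adult 1 (adjusted p = 0.0531), EAE 1 (0.153), EAE 2 (0.0709) or marker-bearing cells (0.0529). It was also lost under DESeq2 (0.117), with near-identical libraries summed (0.0977) and without Adult 2 and 3 together (0.421).

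In microglia, 3 of 9 members tested rose in EAE, where 13.8% of all genes were called higher and 26.5% in all. Il1b rose by 1.35 ± 0.30 (adjusted p = 0.00939), from 52.9, 123 and 95.7 CPM in Adult to 165 and 192 CPM, and the call was lost without EAE 2 (1.27, adjusted p = 0.0544) and with near-identical libraries summed (0.0668). Il1r2 rose by 3.96 ± 0.83 (adjusted p = 0.00294) with 105 UMIs against 2, a ratio of 14.3 (3.87 to 120). Il1rn rose by 4.16 ± 1.04 (adjusted p = 0.00901) with 64 UMIs against 1, a ratio of 17.5 (3.02 to 700.1), and this call was lost without Adult 1 (adjusted p = 0.0787) or EAE 2 (0.0545) and with cells named by marker score (0.0755). Summed macrophage markers in microglia went from 12.7–13.1 CPM in Adult to 311–339 CPM in EAE. Their part was not tested, and without marker-bearing cells Il1b rose by 2.05 and Il1r2 by 3.13, whereas Il1rn no longer passed (3.87, adjusted p = 0.063). Of the microglia, 2647 of 2896 EAE cells lay in a cluster led by Niacr1 and Ccl4, and 939 of 962 Adult cells in one led by P2ry12. Tnf differed by 1.24 ± 0.40 and just missed the threshold (adjusted p = 0.0532), and Il1a differed by 0.03 (95% interval -0.32 to 0.37).

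In PVMs, 1 of 7 members tested passed in EAE, where 21.2% of all genes were called and 12% higher. Il1a differed by 1.17 ± 0.42 (adjusted p = 0.0478), with 10.9, 10.47 and 24.3 CPM in Adult and 26.3 and 32.4 CPM in EAE. The call was lost without Adult 1 (0.93, adjusted p = 0.168), Adult 2 (0.97, 0.134), EAE 1 (1.33, 0.0983), EAE 2 (1.03, 0.247) or Juvenile 1 (1.17, 0.0598). It was also lost under DESeq2 (0.22), with near-identical libraries summed (0.183) and with cells named by marker score (0.79, 0.402). Without marker-bearing cells the difference was -0.0035 (adjusted p = 0.999). The value lies so near the threshold that moving a few cells between classes, as other arithmetic in the clustering does, placed it on either side.

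In CPE, 3 of 10 members rose in EAE, where 17.1% of all genes were called higher and 33.3% in all: Il1b by 1.47 ± 0.19, Il1rn by 4.16 ± 0.70 and Il1r2 by 2.66 ± 0.54 (adjusted p = 1.09e-05, 0.000235 and 0.00109). Il1b in CPE was 41.1 and 29.04 CPM in EAE, near the T cell level, against 12.6, 14.2 and 8.29 CPM in Adult. Macrophage markers in CPE went from 7.97–10.7 to 122–158 CPM. Of the CPE cells, 2595 of 2876 in Adult lay in a cluster led by Cox8b and Rdh5, whereas in EAE 422 of 914 lay there and 470 in one led by Prlr and Steap2. Without marker-bearing cells Il1b rose by 1.16, and Il1rn and Il1r2 fell below the filter. In astrocytes, Il1b alone of 3 members tested rose (4.52 ± 0.93, adjusted p = 0.00445), where 2.34% of all genes passed and 1.56% were higher. It rested on 19 UMIs in 72 cells against 2. Summed macrophage and neutrophil markers in EAE astrocytes were 121–859 and 182–6096 CPM, against 10.6–18.3 and 31.8–112 CPM in Adult, and their part was not tested. The Il1b level was 60.7 and 136 CPM in EAE and 5.30, 0 and 0 CPM in Adult, and the call was lost without Adult 1 (8.63, adjusted p = 0.0746), without EAE 2 (3.83, 0.202), without marker-bearing cells (3.39, 0.213) and with cells named by marker score (3.24, 0.132), and DESeq2 gave no adjusted p.

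**Figure D4:**
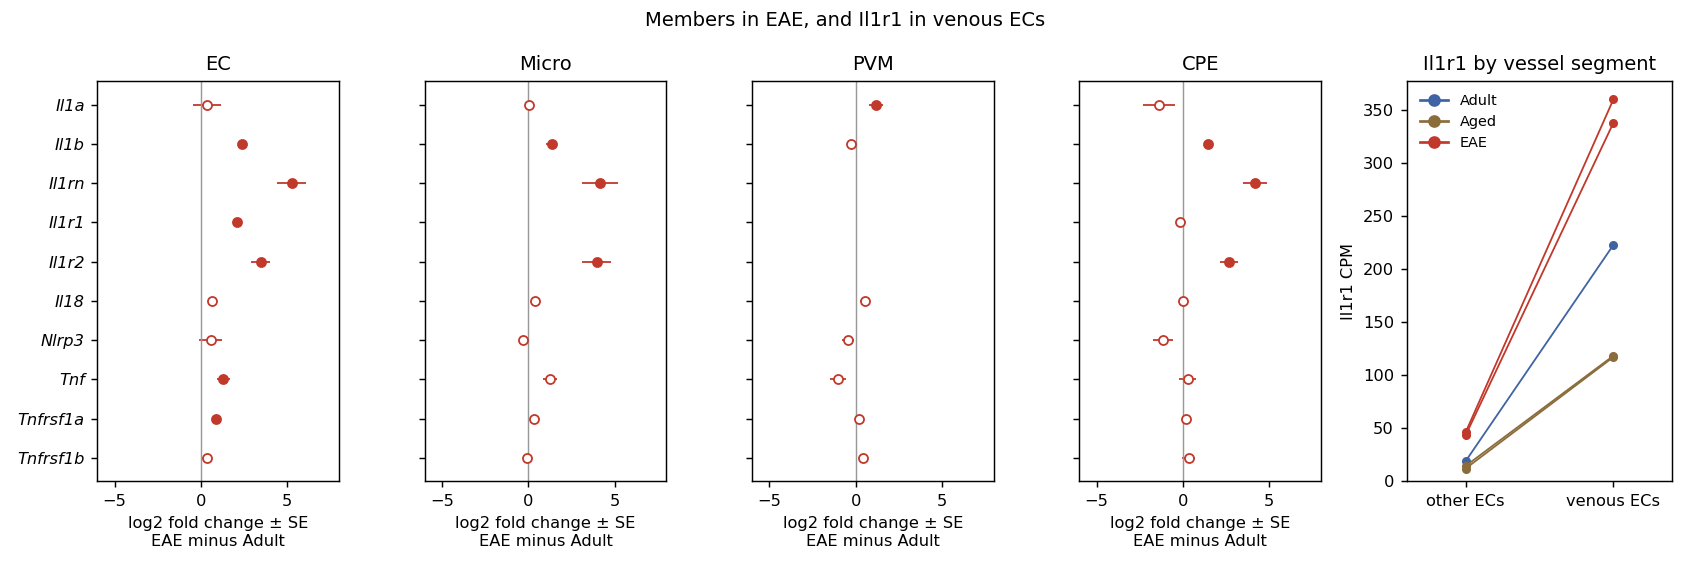
Log2 change EAE minus Adult with its SE for each member tested in ECs, microglia, PVMs and CPE (filled points passed an adjusted p of 0.05), and Il1r1 CPM of venous against other ECs in 5 units. In ECs 6 members passed and in PVMs 1; the lowest venous Il1r1 value, 117 CPM, is above the highest of other ECs, 46.1 CPM.

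Against Adult, microglia and the PVM class, without Cxcl13+ cells, moved apart in Il1b and Tnf in EAE and at 18 months. In Il1b they did so at P10 too. In PVMs, Il1b held 102, 160 and 91.9 CPM in Adult 1 to 3, 48.0 and 36.4 CPM in Aged, 86.8 and 84.5 CPM in EAE, and 59.7, 44.7, 47.9 and 39.3 CPM in Juvenile. In microglia, Aged values (136 and 154 CPM) lay above all Adult values, whereas the Aged PVM values lay below all Adult PVM values. The neutrophil gene S100a9 was higher in Aged than in Adult in both classes, at 95.0 against 11.3 CPM in microglia and 82.5 against 12.8 CPM in PVMs. Its part was not tested. Tnf in PVMs was 132, 255 and 269 CPM in Adult, 58.2 and 51.4 CPM in Aged, and 70.2 and 105 CPM in EAE, whereas in microglia it was 118, 334 and 280 CPM in Adult and 488 and 449 CPM in Aged. Within PVMs, Tnf was not called at 18 months or in EAE (log2 -1.82 and -1.02), nor was Il1b in EAE (-0.25).

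The test of the difference between both effects, chosen after seeing the data, passed for Il1b and Tnf. At 18 months the effect in microglia exceeded that in PVMs by 2.28 ± 0.26 for Il1b (adjusted p = 1.11e-09) and by 3.01 ± 0.28 for Tnf (3.28e-07), where 0.887% of all genes passed. In EAE it did so by 1.55 ± 0.21 for Il1b (6.77e-08) and 2.22 ± 0.24 for Tnf (1.58e-06), where 6.01% passed. Neither gene lost the call in these contrasts when any of the 10 units was left out. The PVM class leaves out the Cxcl13+ cells, which held far more Il1b and made up 0.334–0.582% of cells in Adult and 1.47–1.49% in Aged libraries. These PVM values therefore depend on where that boundary was drawn, and the test of the difference was not run with other names for the cells. From Adult to Aged, Il1b UMIs went from 229 to 50 in the PVM class and from 786 to 1419 in Cxcl13+ cells. Whether the Il1b difference at 18 months holds with both classes joined was not tested. The Aged and EAE contrasts share the Adult units. Most Juvenile and Adult PVMs lay in a cluster led by Ednrb, Ccl24 and Bmp2, and most Aged and EAE PVMs in a cluster led by Ccl8, Cd209b and Vcam1. The summed list of genes known to respond to tissue dissociation stood at 17170–32167 CPM in Adult PVMs, 8383–8608 CPM in Aged and 5616–7273 CPM in EAE, but at 28934–35988 CPM in microglia of all 3 groups. Its part in these results was not tested.

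**Figure D5:**
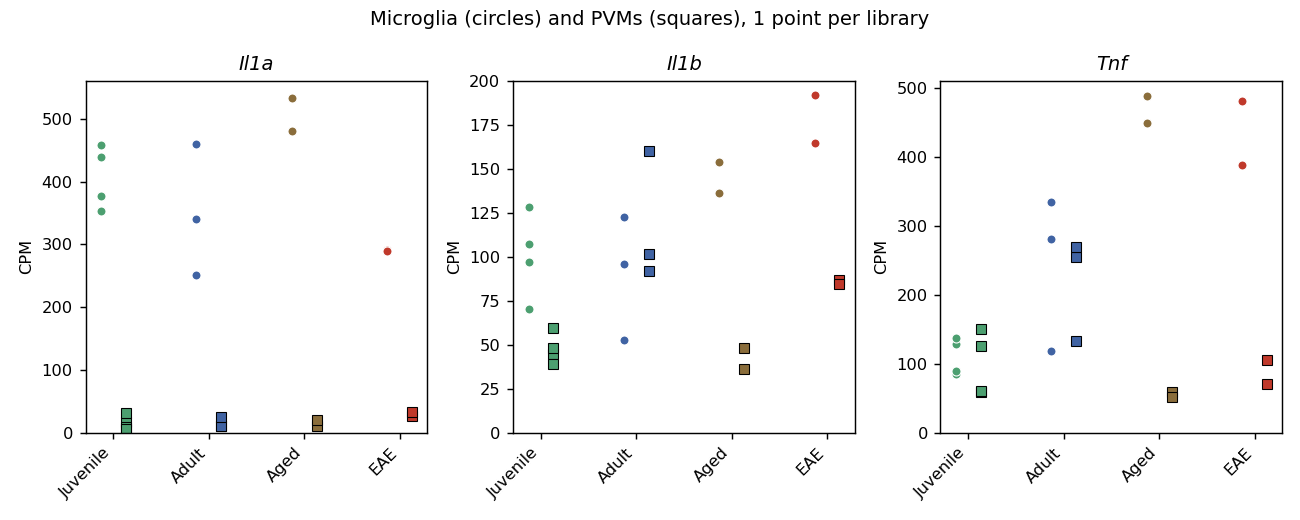
CPM of Il1a, Il1b and Tnf per library by condition, circles for microglia and squares for PVMs. Il1a separates both classes in every library; for Tnf, Aged microglia (488 and 449 CPM) lie above and Aged PVMs (58.2 and 51.4 CPM) below all Adult values of their class.

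At 18 months few members moved within a class. Of 43 tests 2 were called, 1 higher and 1 lower, where 2.29% of all gene tests passed (1.03% higher, 1.26% lower). An unadjusted p below 0.05 was found in 13 tests. All shares of genes are at the adjusted threshold, so the unadjusted counts cannot be set against them. Il1b fell in PVMs by 1.398 ± 0.23 on the log2 scale (adjusted p = 0.000951), where 2.35% of all genes were called, 1.18% higher and 1.17% lower. This call was lost without Aged 2 (adjusted p = 0.0686), with near-identical libraries summed (0.0664) and with cells named by marker score (-1.14, 0.362). It holds only for the PVM class as drawn, which leaves out the Cxcl13+ cells. The PVM class held 229 Il1b UMIs in Adult (506 cells) and 50 in Aged (397 cells). Cxcl13+ cells held 786 in Adult (51 cells) and 1419 in Aged (146 cells). Whether Il1b falls with both classes joined was not tested. Il18 rose in ECs by 0.91 ± 0.23 (adjusted p = 0.0339), from 6.77, 7.24 and 7.33 CPM to 12.3 and 14.8 CPM, where 5.64% of all genes were called and 2.33% were higher. It was lost without Aged 1 (adjusted p = 0.127), Aged 2 (0.24), EAE 1 (0.0818) or EAE 2 (0.0822), and also under DESeq2 (0.38), with near-identical libraries summed (0.681), without Adult 2 and 3 together (0.581), with cells named by marker score (0.118) and with the unnamed cluster of EC markers added (0.62, adjusted p = 0.122). In microglia 0 of 9 passed, with 6 at an unadjusted p below 0.05, where 2.13% of all genes were called (1.27% higher). Il1a (0.67, 95% interval 0.32 to 1.02), Il1b (0.89, 0.27 to 1.51) and Tnf (1.19, 0.41 to 1.98) all had intervals above 0 and adjusted p-values of 0.0656, 0.191 and 0.19. No member passed in CPE (0 of 10, 1 unadjusted, 1.58% of all genes called and 0.689% higher) or in astrocytes (0 of 3, 0 unadjusted, 0.534% and 0.0685%). The same held for mural cells (0 of 3, 1 unadjusted, 0.0315% and 0.0157%) and fibroblast-like cells (0 of 1, 0 unadjusted, 0.0289% and 0%).

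At P10, Il1b was lower than in adults in ECs, CPE and PVMs. Of 43 tests of members 12 were called, 1 higher and 11 lower, and 31 in neither direction, where 30.2% of all gene tests passed (14.5% higher, 15.7% lower), so members were called about as often as other genes. With near-identical libraries summed, which leaves 2 Juvenile units, 7 were called. In ECs (6 of 10, with 37.3% of all genes called and 18.7% higher) Il1b fell by 1.97 ± 0.25 (adjusted p = 1.95e-05), Il1r1 by 0.78 ± 0.17 (0.00178) and Il18 by 0.90 ± 0.23 (0.00569). Without Adult 2 and 3 together these 3 calls were lost (adjusted p = 0.157, 0.0688 and 0.746), and Il18 also under DESeq2 (0.143) and with near-identical libraries summed (0.181). The other EC calls, Tnf and Il1r2 lower and Tnfrsf1a higher, had adjusted p-values of 0.0458, 0.0472 and 0.0257 and were each lost without several single libraries, under DESeq2 and with near-identical libraries summed. In CPE (4 of 10, 57.1% called and 27.5% higher) Il1b fell by 3.29 ± 0.27 (3.39e-09), from 12.6, 14.2 and 8.29 CPM in Adult to 0.824–1.97 CPM. Il1r2 in CPE had 0 UMIs at P10 against 16 in Adult. With 3 counts in place of the 0 the ratio was 4.74, which leaves out the counting error of the 16. Tnf and Tnfrsf1b also fell there, by 1.69 ± 0.51 and 1.32 ± 0.36 (adjusted p = 0.0139 and 0.00404), the first lost without Juvenile 3 (0.0566) and with near-identical libraries summed (0.149), and the second without Adult 1 (0.066) and with a replicate block (0.0527). Il1b fell in PVMs, where 9.67% of all genes were called (3.88% higher), by 1.37 ± 0.19 (adjusted p = 4.59e-05). Il18 fell in astrocytes, where 13.8% were called (5.71% higher), by 0.81 ± 0.18 (adjusted p = 0.00169), a call lost without Adult 1 (adjusted p = 0.267). In microglia 0 of 9 passed, where 24.9% of all genes did (12% higher), and 1 had an unadjusted p below 0.05, Tnf (-0.97, adjusted p = 0.079). Mural cells (0 of 3, 26% of all genes called and 12.5% higher) and fibroblast-like cells (0 of 1, 3.04% and 1.42%) had no call and no unadjusted p below 0.05.

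Neutrophil markers were also lower at P10 in the classes where Il1b fell, though not only there. The sum of the 8 markers went from 50.1–69.7 CPM in Adult to 2.36–16.2 CPM at P10 in CPE, from 37.3–46.2 to 2.57–11.1 CPM in ECs and from 65.5–97.7 to 17.5–43.4 CPM in PVMs. Up to 6 of 8 of these genes were at 0 at P10 in CPE, 5 in ECs and 7 in PVMs. The sum of the 7 macrophage markers went from 7.97–10.7 to 0.472–5.56 CPM in CPE, from 20.5–30.5 to 6.996–11.1 CPM in ECs and from 20.8–29.1 to 2.21–21.4 CPM in PVMs. With marker-bearing cells left out, Il1b fell by 3.31 in CPE, 1.89 in ECs and 1.19 in PVMs (log2). Cells with fewer such UMIs stayed in, and the part of the markers was not tested. The neutrophil genes Retnlg and S100a8 also fell in microglia (log2 -5.11 and -3.02) and in mural cells (-3.90 and -3.47). Il1b was called in neither class. Most Juvenile cells lay in other clusters than Adult cells, with 1715 of 2042 CPE cells in one led by Slc6a15 and Wfikkn2 and 2663 of 3115 ECs in one led by Aplnr and Apln.

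Other genes of both pathways were counted from fixed lists. In ECs of EAE, 8 of 21 NF-κB target genes tested rose and none fell (13.4% of all genes rose and 9.62% fell), with a median log2 change of 0.45 against 0.01 over all genes. Lcn2, an iron-binding acute-phase protein, rose by 6.96 ± 0.21, Ptgs2, the inducible cyclooxygenase, by 1.82 and Birc3, an inhibitor of apoptosis, by 1.54. Of 13 further TNF family receptors 4 rose and 2 fell in ECs, with Fas, a death receptor, at 2.10, Tnfrsf12a at 2.05 and Cd40, a costimulatory receptor, at -1.67. Of 17 genes of signal transduction 5 rose and 2 fell, among them Irak3, a brake on IL-1 receptor signaling, at 1.99 and Adam17, the sheddase of TNF, at -0.70.

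Il18bp, whose product neutralizes IL-18, rose in EAE in each of 4 classes, by 1.91 ± 0.24 in ECs, 5.36 ± 0.34 in microglia, 3.77 ± 0.22 in PVMs and 1.86 in CPE. In microglia of EAE, 4 of 6 inflammasome genes rose, among them the pore-forming Gsdmd by 1.07, Casp1 by 0.82 and the adaptor Pycard by 0.67, with a median of 0.65 against -0.01 over all genes, of which 13.8% rose and 12.7% fell. The sensor Nlrp3 itself was not called in EAE, with a log2 change of -0.28 in microglia and -0.45 in PVMs. NF-κB targets were mixed in microglia, with 5 of 18 higher and 2 lower, the latter Icam1, an adhesion molecule, at -1.33 and Nfkb1 at -0.64. In PVMs 4 of 14 rose, where 12% of all genes did and 9.23% fell, with Lcn2 at 4.10 and the adhesion molecule Vcam1 at 1.74, and Cd40 rose by 2.97. The neutrophil genes Retnlg, S100a8 and S100a9 also rose in PVMs of EAE, by 2.68, 1.94 and 2.60, and their part was not tested. At 18 months 1 of 21 NF-κB targets rose and 2 fell in ECs, where 2.33% of all genes rose and 3.31% fell. Lcn2 rose by 2.11, whereas Tnfaip3, an inhibitor of NF-κB, was lower by 0.80 and Relb lower by 0.68. At P10, 9 of 21 NF-κB targets fell and 2 rose in ECs, with Ptgs2 at -2.54 and Vcam1 at -2.41, and in the same cells 14 of 16 genes of the dissociation list fell, where 18.7% of all genes rose and 18.6% fell.

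Over 59 combinations of class and condition, the genes whose level was most like that of Il1b were Cd14 (Pearson r = 0.89 of log2(CPM + 1)), Clec7a (0.886) and Lyz2 (0.873). For Tnf they were Ctss (0.835), Cd84 (0.833) and Laptm5 (0.827), for Il1r1 Phactr2 (0.70), Foxl2 (0.677) and Hsp25-ps1 (0.675), and for Tnfrsf1b Lcp1 (0.898), Slfn2 (0.881) and Neurl3 (0.868). The combinations share libraries and depth, so these values describe likeness only.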

How the data were processed

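UMI counts per gene and cell barcode were deposited by the authors as whole counts, made, per the submitters' processing notes, with bcl2fastq 2.19.1.403, UMI-tools 0.5.3, STAR 2.5.3a (mm10) and featureCounts 1.6.1. The study's methods name other versions of the last 3 tools. Per the labels, tissue was pooled within a library, so p-values measure the spread between libraries of pooled tissue, not between mice. Over ECs, microglia and CPE, the 2 EAE libraries differed by a chi-square per degree of freedom of 1.69 to 1.98. The 2 Aged libraries differed by 1.74 to 2.62. Each of these libraries was counted as a unit, and how far they stand for separate pools was not tested.

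Cells had to show over 500 genes, fewer than 6000, and a mitochondrial share of UMIs under 25%. They were clustered in Seurat 5.3.0 (2000 variable genes without the 10 genes, 12 components, resolution 0.5). UMIs were summed per library and class with at least 10 cells and tested by the quasi-likelihood method of edgeR 4.0.16, robust, after filterByExpr and TMM scaling, with Benjamini-Hochberg adjustment over all genes and all conditions in 1 fit per class. Contrasts of cell groups from the same library carried a library term. Adult 2 and 3 differed by a chi-square per degree of freedom of 1.404 to 1.48, so slightly beyond counting noise, and were counted as 1. Scrublet (Scanpy 1.11.5) called 1.18 to 2.45% of cells except in Aged, where it called 0.0786 and 0.105% and has not worked, so called cells were removed only in an alternative. The steps were tested on simulated data, where smaller changes were often missed and the share of false calls lay above the threshold for ECs in EAE and for neutrophils against macrophages, and near it for microglia and PVMs. Intervals on ratios cover counting error only. All 10 genes were named throughout. Of the pathway lists, up to 3 called genes per direction with the largest change and at least 20 CPM were named. The genes and lists were chosen with earlier results of these data known. Genome positions are from GENCODE M21 and RefSeq on GRCm38.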

Additional observations from a re-analysis of the deposited data

Results flagged for a closer look

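Il1a in fibroblast-like cells of Juvenile 2 stood at 26.3 CPM, far from the other 3 Juvenile libraries (7.90 to 10.6 CPM). The gap was 0.85 of the range, above the limit of 0.829 for 4 samples. This was 1 of 28 such groups checked, and chance gives about 1 in 20.

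The effects of age and disease differed between microglia and the PVM class, without Cxcl13+ cells, in 6 tests. At 18 months the difference (microglia minus PVMs, log2) was 2.28 for Il1b and 3.01 for Tnf. In EAE it was -1.23 for Il1a (adjusted p = 0.00595, lost without Adult 2 and 3 or without EAE 2, up to 0.135), 1.55 for Il1b and 2.22 for Tnf. At P10 it was 1.66 for Il1b (adjusted p = 1.03e-07, edgeR, where 5.04% of all genes passed).

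Clusters led by Ccl22 and Ccr7, by Elane and Mpo, and by Igfbp7 and Flt1 stayed unnamed and entered no comparison. In EAE their Il1b stood at 831 CPM (80 cells), 654 CPM (125 cells) and 1016 CPM (262 cells), above T cells of the same libraries. The last cluster scored highest on EC markers and next on macrophage markers, and was found among the leukocytes. The cluster led by Elane and Mpo also held Il1b at 921 CPM in Adult, 625 CPM in Aged and 915 CPM in Juvenile.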

How the results depend on the processing

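Of 67 calls, 30 were lost under 1 or more of the alternatives that gave a value, and 37 were not. Among the 37, Il1rn and Il1r2 in CPE in EAE and Il1r2 in CPE at P10 fell below the filter without marker-bearing cells, and Il1rn of microglia against PVMs gave no value with all libraries separate or without the library term. In 3 the sign turned: Il1r2 in ECs at P10 (2.97 without Adult 2 and 3 together), Il1r2 of DCs against macrophages (-1.68 with cells named by marker scores) and Il1a in PVMs in EAE (-0.0035 without marker-bearing cells). The counts of called members moved as follows. In EAE (14), 8 were called without marker-bearing cells and 9 to 15 with 1 library left out. At 18 months (2), DESeq2 gave 4, no filter on low counts 7, summing near-identical libraries in every condition 0, leaving out Adult 2 and 3 together 5, and leaving out 1 library 0 to 4. At P10 (12), summing near-identical libraries gave 7 and leaving out 1 library 9 to 13. For venous ECs (4), DESeq2, no filter and summed libraries each gave 2, no replicate block 1 and leaving out 1 library 1 to 4. For MHCII+ PVMs (4), summed libraries gave 2 and leaving out 1 library 2 to 4, and for microglia against PVMs (5) leaving out 1 library gave 4 to 6. The replicate block gave 15 in EAE, 10 at P10 and 4 at 18 months. In ECs, same-numbered libraries did not deviate together (r -0.063 to 0.085 over 13 pairs). In groups of 2 libraries the deviations mirror each other, so these values are not all independent. The check showed no pairing by number but cannot exclude it. Without 1 of the 2 EAE libraries the contrasts between myeloid classes had no test. The causes were not tested. The same clustering with other linear-algebra routines moved a few cells between classes, and with it the call of Il1a in PVMs and the units with MHCII+ cells. Changes of low genes such as Il1rn and Il1r2 in ECs or microglia rest on few UMIs, and depth limits what could be seen in astrocytes, mural and fibroblast-like cells, where 3, 3 and 1 members were tested.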
